A study of Drosophila melanogaster with 12 samples.

Results

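The ejaculatory duct and bulb of the male fly secrete proteins that pass to the female with the semen, and 7 of their genes were followed here among the 15631 genes counted in either of the deposited tables. They are Ebp, EbpII and EbpIII (NCBI genes 38009, 326108 and 49821), Est-6 (39392), Gld (40875), Dup99B (2768691) and Anp (43595). They were chosen by name, with earlier results of these data known. All 7 passed the filter on low counts in each fit, Ebp, EbpII, Anp and Dup99B through male counts alone.

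The libraries came from whole w1118 flies, a white-eyed laboratory strain, with 3 libraries in each of 4 groups: males aged 30 days, males aged 10 days, females aged 30 days and females aged 10 days. Each sample pooled 10 flies, and the 3 samples of a group came from independent experiments. All flies were mated, were separated by sex at 3 days of age and were then kept on the sugar and yeast diet SY10. Nothing was dissected, so the duct and bulb made up a small part of each male sample, and fewer cells of these organs and less RNA per cell cannot be told apart.

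In the reproductive tract of the male fly, sperm from the testes and seminal fluid from the accessory glands enter the ejaculatory duct, and the contents pass on through the muscular ejaculatory bulb. The duct epithelium adds enzymes and peptides of its own. The bulb makes the proteins of the posterior mating plug, which holds the ejaculate in the uterus after mating, and it is the site where the male pheromone cis-vaccenyl acetate is made. Several of these proteins reach the female with the seminal fluid and act there on egg laying, on receptivity to further males and on sperm storage.

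Total counts per library were 23097763 to 38990857 in 30-day males, 38199967 to 48613036 in 10-day males, 37558056 to 54692004 in 30-day females and 51208712 to 62924598 in 10-day females. Levels are given as TMM CPM, the count scaled to a common library size with factors from the trimmed mean of M values. A count of 0 in a library allows a level of up to 3 counts, which was 0.0446 to 0.1503 TMM CPM depending on the library, and this limit covers counting error only. The accessory gland and testis lists were high in male libraries, and the ovary list was at 1482 to 5321 TMM CPM in female libraries and at 2.08 to 43.7 in male libraries. The highest male value was in replicate 3 of the 10-day males, against 3.18 and 3.56 in the other 10-day males, and its summed yolk protein genes were at 83.3 TMM CPM, against 16.6 and 17.4. Mhc, the muscle myosin heavy chain gene, was abundant in every library. The flight muscle genes fln and TpnC4 had at most 67 and 86 counts and none in some of these libraries of whole flies. Act88F of the same list had more, with 326 to 694 counts in 30-day males and 160 to 497 in 10-day males. In females Act88F had 203 to 645 counts at 30 days and 0 to 193 at 10 days.

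Replicate 2 of the 30-day males stood apart from the other libraries of its group. It had the fewest counts of all 12 libraries and counts for the most genes (14946). Genes with under 500 bases of exon had a median log2 ratio of 1.07 in this library over the mean of the other 2, and 51.9% of the 231 such genes were over 2-fold higher. The ratio fell with length, to 0.41 between 500 and 1000 bases and to -0.22 from 4000 bases. Of the genes followed here, Dup99B (310 bases) and Anp (373 bases) lie in the shortest class. EbpII (608 bases) lies in the next, and the others have 1160 to 2899 bases. Age differences, bounds and levels per kilobase that rest on this library are therefore given with and without it.

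**Figure D1:**
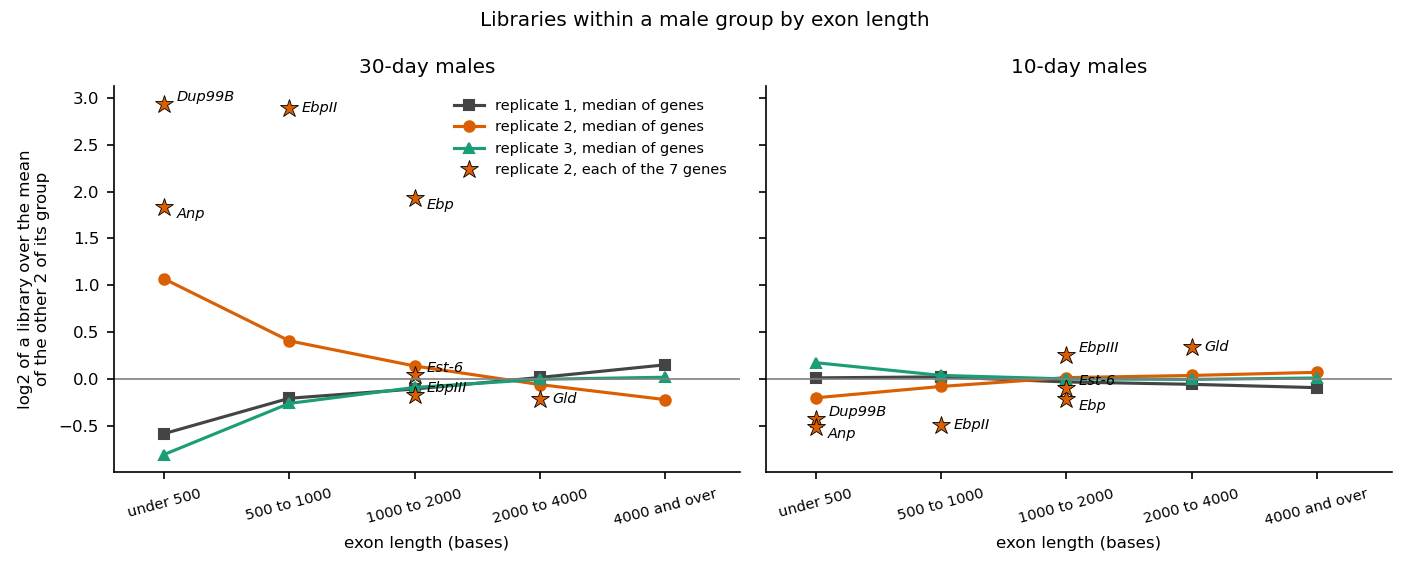
Log2 ratio of each library to the mean of the other 2 of its group (y axis) by exon length in bases (x axis), for 30-day males on the left and 10-day males on the right. Lines are medians over genes with a mean of at least 10 TMM CPM, and stars are the 7 genes in replicate 2. In 30-day males replicate 2 lies at 1.07 for the shortest class, and Dup99B, EbpII, Ebp and Anp lie at 2.94, 2.89, 1.93 and 1.84.

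Ebp and EbpII, the mating plug proteins of the bulb, were expressed in males and had no count in any of the 6 female libraries. The genes are neighbours on chromosome arm 2R and are read from the same strand, 896 bases apart in the annotation. Ebp had 17.2, 248 and 112 TMM CPM in replicates 1 to 3 of 30-day males, against 164, 226 and 362 in 10-day males. EbpII had 7.15, 123 and 24.3 TMM CPM in 30-day males, against 74.0, 88.7 and 177 in 10-day males. For both genes replicate 1 of the 30-day males was the lowest of the 6 male libraries, and replicate 3 of the 10-day males the highest. The ages overlapped because replicate 2 of the 30-day males lay among the 10-day males.

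The ratio of the highest to the lowest 30-day male library was larger for these 2 genes than for any of the other 5, although by coefficient of variation Dup99B (119.9%) exceeded Ebp (92.5%). The highest 30-day male library exceeded the lowest 14.5-fold for Ebp and 17.2-fold for EbpII, against 2.20-fold and 2.39-fold in 10-day males. Within a library the 2 genes kept close to each other. The count of Ebp over that of EbpII was 2.40, 2.02 and 4.59 in 30-day males and 2.22, 2.55 and 2.05 in 10-day males. Sfp60F, a seminal fluid protein gene on the other side of EbpII, was looked at after its values were seen. It had 82, 2002 and 524 counts in 30-day males, 843, 1498 and 3215 in 10-day males and 0 in all female libraries, with its lowest male count in the same library as Ebp and EbpII.

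EbpIII, the third bulb protein, belongs to the OS-D family of small secreted proteins related to chemosensory proteins, and it was the only one of the 3 with counts in females. It had 768, 806 and 1049 TMM CPM in 30-day males, against 132, 48.1 and 92.9 in 30-day females. In 10-day males it had 939, 1066 and 842 TMM CPM, against 96.85, 98.5 and 75.3 in 10-day females. Every male library was above every female library. Its highest male library exceeded its lowest by 1.37-fold at 30 days and 1.27-fold at 10 days, the least of the 7 genes, and it averaged 874 ± 153 TMM CPM in 30-day males and 949 ± 112 in 10-day males (SD, n = 3 each).

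Est-6 encodes esterase 6, a carboxylesterase that the anterior duct secretes into the semen and that is also found in other tissues. It had 512, 628 and 709 TMM CPM in 30-day males, against 6.96, 2.24 and 5.58 in 30-day females. It had 569.9, 357 and 191 TMM CPM in 10-day males, against 4.71, 5.64 and 4.13 in 10-day females. The sexes did not overlap, and the 10-day males spread 2.99-fold while the 30-day males spread 1.38-fold. Est-6 overlaps thoc6 on the other strand on arm 3L, and whether the counting used strand is not given in the sources used here, so reads of the overlap cannot be told apart. thoc6 had 93 to 418 counts in male libraries and 2959 to 5208 in female libraries, where Est-6 had 137 to 326. Its close relative Est-P, the next gene on the arm, was not analysed here.

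Gld encodes glucose dehydrogenase, an oxidoreductase known from the duct of males and from the sperm storage organs of females. It had 98.3, 109.7 and 157 TMM CPM in 30-day males, against 55.3, 55.6 and 32.25 in 10-day males. It had 1.075, 1.21 and 1.71 TMM CPM in 30-day females, against 1.37, 1.245 and 0.432 in 10-day females. All 30-day male libraries were above all 10-day male libraries, and the ages overlapped in females. The spermatheca gene Send1, a marker of the female storage organ, was at 3.95 ± 2.67 TMM CPM in 30-day females and 9.001 ± 2.25 in 10-day females (SD, n = 3 each). Gld overlaps lncRNA:CR44338 on the other strand, which had 46 to 239 counts in male libraries.

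Dup99B is the duct peptide related to the sex peptide SP of the accessory gland, and in females it acts through the same receptor to raise egg laying and lower receptivity. It had 104, 691 and 74.4 TMM CPM in 30-day males, against 85.4, 56.35 and 66.8 in 10-day males. The level of 691 in replicate 2 of the 30-day males stood alone, and replicates 1 and 3 lay close to or within the range of the 10-day males. Females had 5 counts of Dup99B in all, every one in replicate 3 of the 30-day females. SP was also highest in replicate 2 of the 30-day males, with 943, 4944 and 516 counts there in replicates 1 to 3, against 573, 498 and 1406 counts in 10-day males and 0 in females.

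Anp encodes andropin, an antibacterial peptide of the duct that is thought to protect the seminal fluid and the tract, and its gene lies next to the cecropin cluster on arm 3R. It had 119, 422 and 116 TMM CPM in 30-day males, against 50.9, 29.3 and 33.85 in 10-day males. All 30-day males were above all 10-day males, also without the 422 of replicate 2. No female library had a count of Anp.

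**Figure D2:**
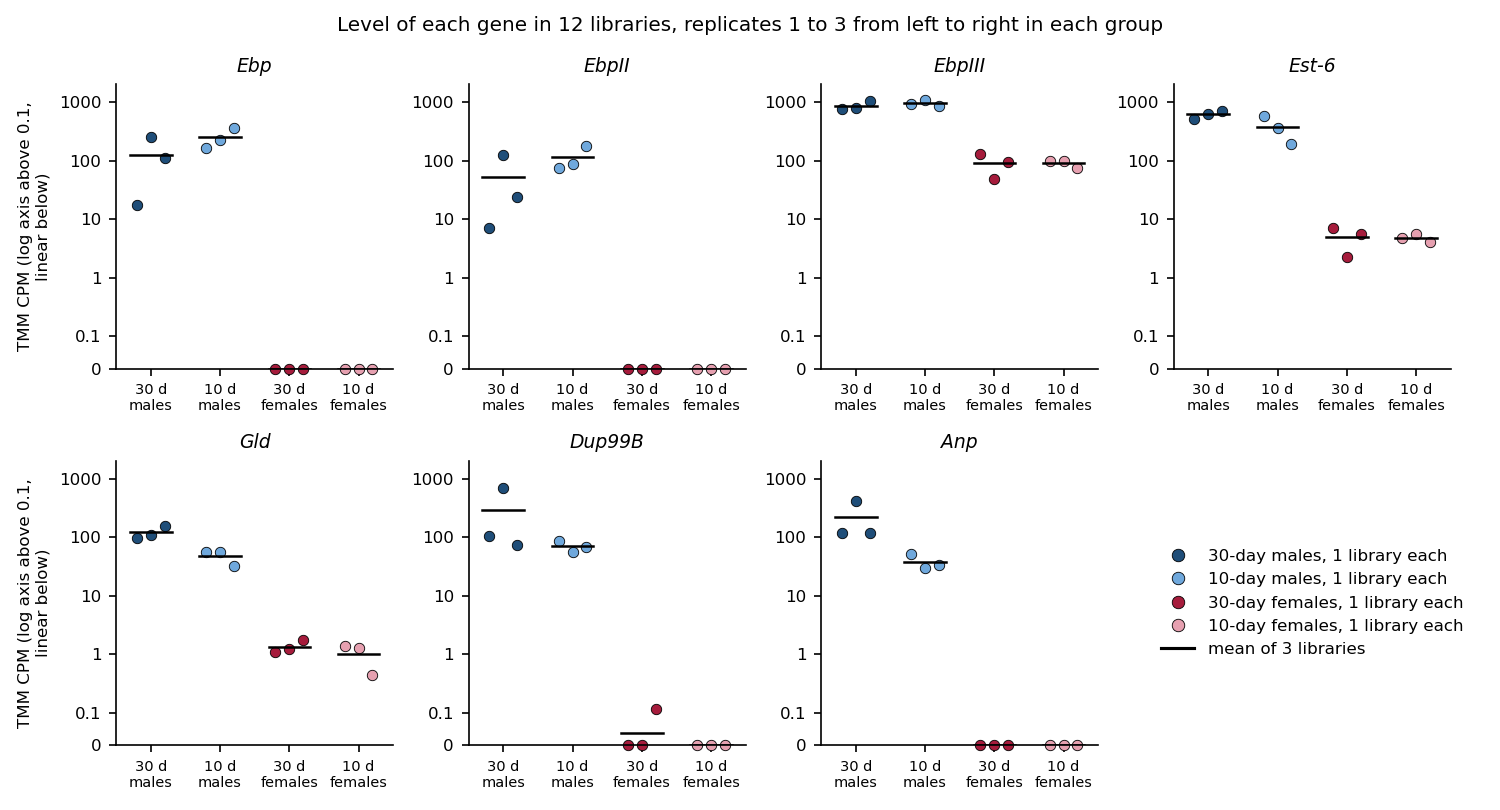
TMM CPM (y axis, log scale above 0.1 and linear below) of each of the 7 genes in the 12 libraries, by group on the x axis. Points are libraries in the order of replicates 1 to 3 and bars are means of 3. Ebp, EbpII and Anp lie at 0 in all female libraries, EbpIII lies between 48.1 and 132 there, and Dup99B has 1 female library above 0.

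To ask which of the genes differed between the sexes, males were compared with females of the same age with the quasi-likelihood test of edgeR, adjusted over all tested genes. All 7 were expressed higher in males at both ages, in edgeR and also with DESeq2 and limma-voom. For Ebp, EbpII, Anp and Dup99B this direction was set by the filter, which they passed through male counts alone. Of all 13013 genes tested at 30 days 48.4% were called higher in males, and of 13334 at 10 days 46.8%. Values of males lay above those of females without overlap for all 7, as they did for 53.2% of all tested genes at 30 days and 52% at 10 days. The median log2 difference over all tested genes was 1.315 at 30 days and 1.055 at 10 days. The median fitted value of the 7 genes was 12.89 at 30 days and 13.82 at 10 days, and each is the value of a gene with 5 or no counts in females, so that it depends on the prior count. With such genes at their bounds the medians were 11.33 at 30 days and 11.14 at 10 days.

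For genes without a count in females the difference is a lower bound, taken against 3 counts over the group, which is 0.02005 TMM CPM in 30-day females and 0.0168 in 10-day females. Ebp was at least 6268-fold higher in males at 30 days and at least 14910-fold higher at 10 days. EbpII was at least 2569-fold and at least 6724-fold higher at the same ages. Anp was at least 10910-fold higher at 30 days and at least 2261-fold higher at 10 days. Adjusted p-values of the 3 genes were 0.000109 to 0.00131 at 30 days and 3.23e-05 to 6.40e-05 at 10 days (edgeR). The 3 genes passed the filter through male counts alone, so these tests could not have come out higher in females and add no support.

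Dup99B also passed the filter through male counts alone, so its tests could not have come out higher in females. It was at least 4132-fold higher in males at 10 days (adjusted p = 1.652e-05, edgeR). At 30 days its mean in males was 8682 times the level that the 5 female counts give, with a 95% Poisson interval of 3720 to 26740 for counting error in females only (adjusted p = 0.000143). Without replicate 2 of the 30-day males the ratio was 2676, and the bounds at 30 days were 3211-fold for Ebp, 784-fold for EbpII and 5847-fold for Anp. The bounds also depend on the depth of the females. Without replicate 2 of the 30-day females they were 3710-fold for Ebp, 1521-fold for EbpII and 6460-fold for Anp, and the Dup99B ratio was 5140. Without replicate 1 of the 10-day females the bounds at 10 days were 9287-fold for Ebp, 4188-fold for EbpII, 2574-fold for Dup99B and 1408-fold for Anp.

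The other 3 genes had counts in every female library, so that a ratio of means could be taken. EbpIII was higher in males by 3.23 on the log2 scale at 30 days (SE 0.36, adjusted p = 0.000122) and by 3.31 at 10 days (SE 0.20, adjusted p = 1.209e-05). Est-6 was higher by 6.94 at 30 days (SE 0.47, adjusted p = 1.633e-05) and by 6.19 at 10 days (SE 0.49, adjusted p = 3.381e-05). Gld was higher by 6.47 at 30 days (SE 0.33, adjusted p = 7.774e-06) and by 5.45 at 10 days (SE 0.54, adjusted p = 9.72e-05). As ratios of mean levels these are 9.61 and 10.5 for EbpIII, 125 and 77.2 for Est-6 and 91.4 and 47.0 for Gld, at 30 and at 10 days.

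The library factors moved these values. With factors from photoreceptor, neuron and muscle genes the median of all genes shifted by -3.51 at 30 days and by -2.65 at 10 days on the log2 scale, and EbpIII went with it. Its log2 difference was then -0.21 at 30 days, with an adjusted p of 0.672 by edgeR, and 0.68 at 10 days, with an adjusted p of 0.00536. Over the 18 alternatives its adjusted p at 30 days ran from 2.635e-19 to 0.672. EbpIII lay above the median of all genes under both factors at both ages. A change of factors shifts all genes by about the same amount. The distance from the median therefore hardly depends on the factors, and this adds no separate support. With the photoreceptor, neuron and muscle factors Est-6 and Gld stayed higher in males, by 3.54 and 2.93 at 30 days. So did Ebp, EbpII, Anp and Dup99B, which had next to no female counts and could not have turned. Over all genes the calls were 2698 higher and 7113 lower at 30 days with these factors, against 6299 and 3950 with TMM, and 3039 and 6952 at 10 days, against 6238 and 4216 with TMM. RLE, upper quartile and total count factors moved the median of all genes by -0.28 to 0.305 at 30 days. DESeq2 moved it by 0.83, but over 15249 genes, against 13013 in the main fit. With TMM and no filter the median was 1.915, against 1.315 in the main fit, so the 0.83 is not a shift of factors alone. All 7 calls held in these fits.

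The genes behind these factors were themselves higher in males with TMM. The 12 photoreceptor genes (median log2 difference 4.08 at 30 days) and the 8 neuron genes (4.01) were all called at both ages. Of the muscle genes 6 of 9 were called at 30 days. Of all tested genes 48.4% were called higher in males at 30 days and 46.8% at 10 days, and the muscle count does not stand apart from that. The photoreceptor gene norpA was at 0.74 at 30 days and 0.69 at 10 days, below the medians of 1.315 and 1.055 over all tested genes. The summed photoreceptor level was 6308 to 7252 TMM CPM in 30-day males against 316 to 804 in 30-day females, and 7600 to 9170 in 10-day males against 836 to 1698 in 10-day females. The part of the makeup of the whole fly in the EbpIII difference was not tested.

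**Figure D3:**
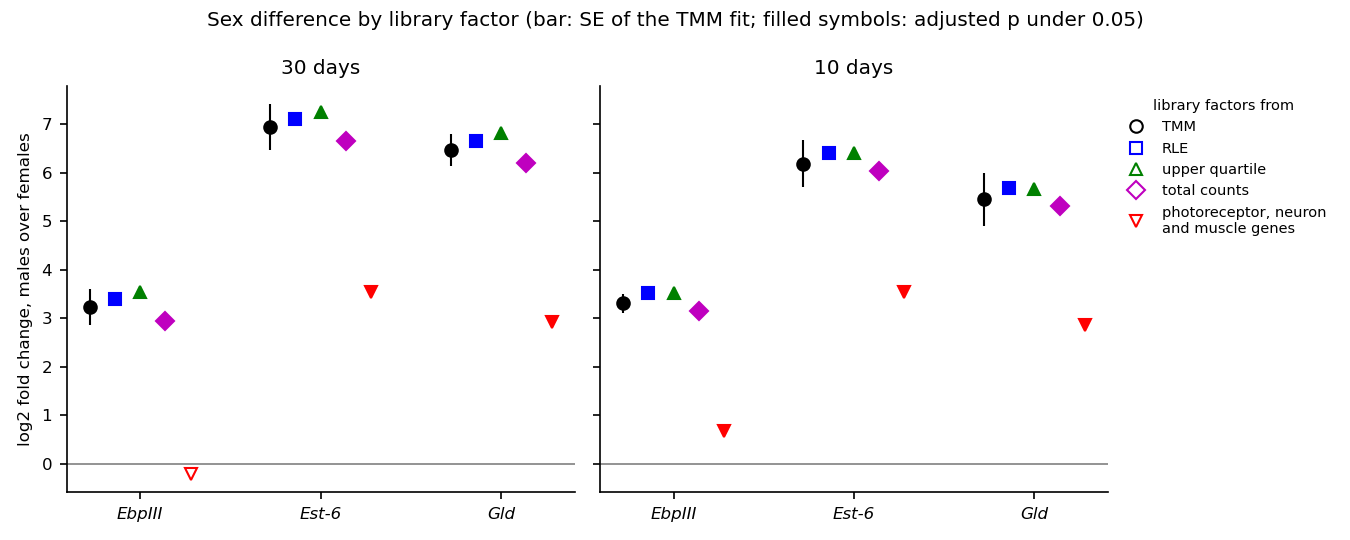
Log2 fold change of males over females (y axis) for the 3 genes with counts in every female library (x axis) at 30 days on the left and 10 days on the right, under 5 kinds of library factor. Bars are the SE of the TMM fit and filled symbols have an adjusted p under 0.05. With photoreceptor, neuron and muscle genes EbpIII lies at -0.21 at 30 days and at 0.68 at 10 days, and Est-6 and Gld stay above 2.

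The age difference was tested within each sex, from a fit of all 12 libraries in 4 groups. In males 0 of the 7 genes passed the threshold in edgeR, where 63 of 14112 genes did (0.446%). At an unadjusted p under 0.05 there were 3 of the 7, Anp, Dup99B and Gld, and 1690 of all genes. The other tests called more genes. With the 6 male libraries alone edgeR called 2 of the 7 (4.72% of all tested genes), DESeq2 called 2 (6.94%) and limma-voom 3 (8.82%).

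Anp and Gld were the 2 genes whose ages did not overlap in males, both higher at 30 days, which held for 9.86% of all tested genes. Anp had 219 ± 176 TMM CPM in 30-day males and 38.0 ± 11.4 in 10-day males (SD, n = 3 each), a log2 difference of 2.52 (SE 0.55, adjusted p = 0.130). It passed with the male libraries alone (adjusted p = 0.00608), with DESeq2 (adjusted p = 0.000199) and with limma-voom (adjusted p = 0.00725), and over the 25 alternatives its adjusted p ran from 0.000199 to 0.4595. Without replicate 2 of the 30-day males the difference was 1.62 with an adjusted p of 0.0918.

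Gld had 122 ± 31.2 TMM CPM in 30-day males and 47.7 ± 13.4 in 10-day males (SD, n = 3 each), a log2 difference of 1.35 (SE 0.37, adjusted p = 0.157). The same 3 tests called it, with adjusted p-values of 0.00708, 0.0153 and 0.00346, and the range over the alternatives was 0.00346 to 0.778. It did not rest on replicate 2 of the 30-day males, without which the difference was 1.42. Without replicate 3 of the 10-day males, the library with the most ovary and yolk protein counts, it was 1.14 and that of Anp was 2.45, and the part of that RNA in these values was not tested.

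Dup99B had 290 ± 348 TMM CPM in 30-day males and 69.5 ± 14.7 in 10-day males (SD, n = 3 each), a log2 difference of 2.06 (SE 0.77, adjusted p = 0.327). Without replicate 2 of the 30-day males the difference was 0.36, with an adjusted p of 0.850, and over the alternatives the adjusted p ran from 0.0654 to 0.986. The part of the higher short genes of that library in the value was not tested.

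Ebp and EbpII had values below 0 for the age difference in males. Ebp had 126 ± 116 TMM CPM in 30-day males and 251 ± 101 in 10-day males (SD, n = 3 each), a log2 difference of -0.999 (SE 0.78, adjusted p = 0.738). EbpII had 51.5 ± 62.6 TMM CPM in 30-day males and 113 ± 55.5 in 10-day males, a log2 difference of -1.14 (SE 0.90, adjusted p = 0.742). Without replicate 2 of the 30-day males the differences were -1.96 for Ebp (adjusted p = 0.380) and -2.85 for EbpII (adjusted p = 0.157). Without replicate 1 of the 30-day males they were -0.48 and -0.62, and without replicate 3 of the 10-day males -0.63 and -0.66. Over the alternatives the adjusted p of Ebp ran from 0.0638 to 1.0. limma-voom called EbpII lower at -2.31 (adjusted p = 0.0242), and its adjusted p over the alternatives ran from 0.0242 to 1.0.

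Est-6 and EbpIII overlapped between the ages and were called in none of the fits. Est-6 had 616 ± 99.0 TMM CPM in 30-day males and 373 ± 190 in 10-day males (SD, n = 3 each), a log2 difference of 0.73 (SE 0.40, adjusted p = 0.525). Its 2 ages overlapped through replicate 1 of the 10-day males, at 569.9, without which the difference was 1.17, and it was 0.41 without replicate 3 of the 10-day males. EbpIII differed by -0.12 (SE 0.29, adjusted p = 0.940).

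**Figure D4:**
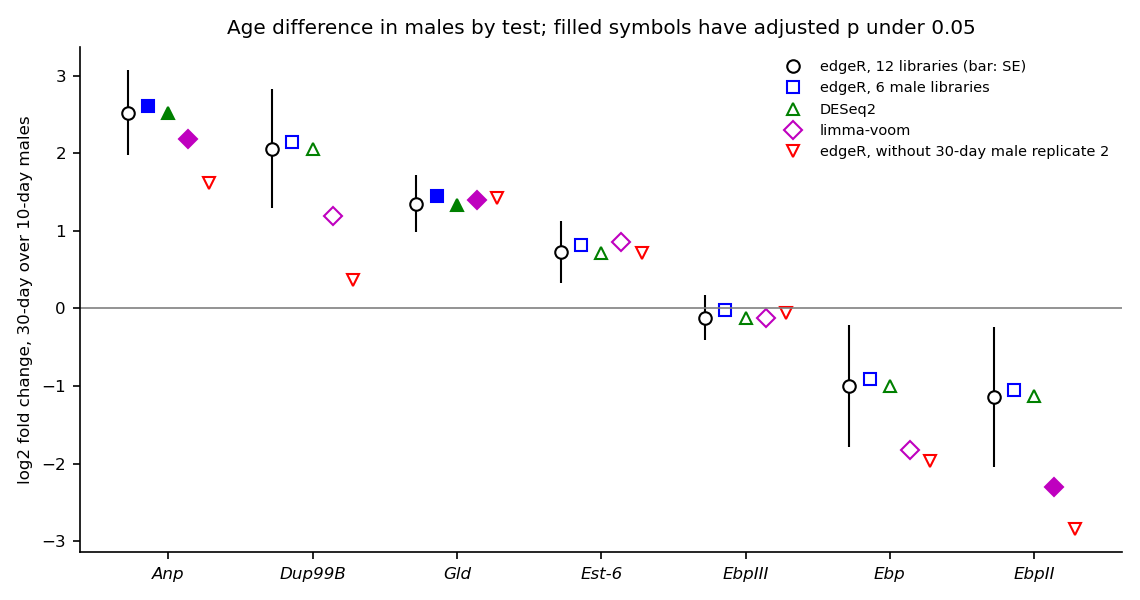
Log2 fold change of 30-day over 10-day males (y axis) for each of the 7 genes (x axis) under 5 fits. Bars are the SE of the edgeR fit of 12 libraries and filled symbols have an adjusted p under 0.05. Anp and Gld are filled in 3 of the 5 fits and EbpII in limma-voom, and the Dup99B value moves to 0.36 without replicate 2 of the 30-day males.

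In females the age difference was tested for the 3 genes with counts in every library. The log2 difference was 0.01 for EbpIII (SE 0.29), 0.02 for Est-6 (SE 0.42) and 0.38 for Gld (SE 0.40), with adjusted p-values of 1.0, 1.0 and 0.850 in edgeR. Of all genes 0.326% passed, and 0 of the 3 did so, also at an unadjusted p under 0.05 and with DESeq2 or limma-voom. Factors from photoreceptor, neuron and muscle genes raised the median of all genes by 0.93 in this comparison. EbpIII (0.90, adjusted p = 0.0340, edgeR) and Gld (1.43, adjusted p = 0.0354, edgeR) were then called higher at 30 days. So were 4898 of all 14112 tested genes, and the 2 calls do not set these genes apart. Over all alternatives of EbpIII and Gld the adjusted p ran up to 1.0.

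Whether the male-female difference itself changed with age was tested as an interaction. It was 0.97 for Gld (SE 0.54, adjusted p = 0.472), 0.70 for Est-6 (SE 0.58, adjusted p = 0.679) and -0.13 for EbpIII (SE 0.41, adjusted p = 0.9999). None of the 3 passed in edgeR, DESeq2 or limma-voom, or at an unadjusted p under 0.05, and 0.0142% of all genes passed in edgeR. For Ebp, EbpII and Anp no interaction could be estimated, since females had no counts. That of Dup99B rested on 5 female counts and was -1.65 with an SE of 3.09 (adjusted p = 0.976, edgeR).

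Levels of different genes were compared per kilobase of exon, among males. In 30-day males Dup99B stood at 936 ± 1122 TMM CPM per kilobase, EbpIII at 754 ± 131, Anp at 587 ± 472 and Est-6 at 336 ± 53.9 (SD, n = 3 each). Neighbours in this order overlapped, and the order rested on replicate 2. Without that library EbpIII stood first at 783 TMM CPM per kilobase, above both libraries of each other gene, and Est-6 (332), Anp (314) and Dup99B (288) overlapped. With all 3 libraries a gap followed after Est-6, with EbpII at 84.7 ± 102.9, Ebp at 82.2 ± 76.0 and Gld at 42.0 ± 10.8, whose libraries all lay below those of Est-6. Without replicate 2 these were at 25.9 for EbpII, 42.1 for Ebp and 44.0 for Gld. In 10-day males EbpIII alone stood first at 818 ± 96.9 TMM CPM per kilobase, above every library of the others. Dup99B (224 ± 47.5), Est-6 (203 ± 104), EbpII (186 ± 91.3), Ebp (164 ± 66.1) and Anp (102 ± 30.6) overlapped with their neighbours, and Gld was below all of them at 16.5 ± 4.62.

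**Figure D5:**
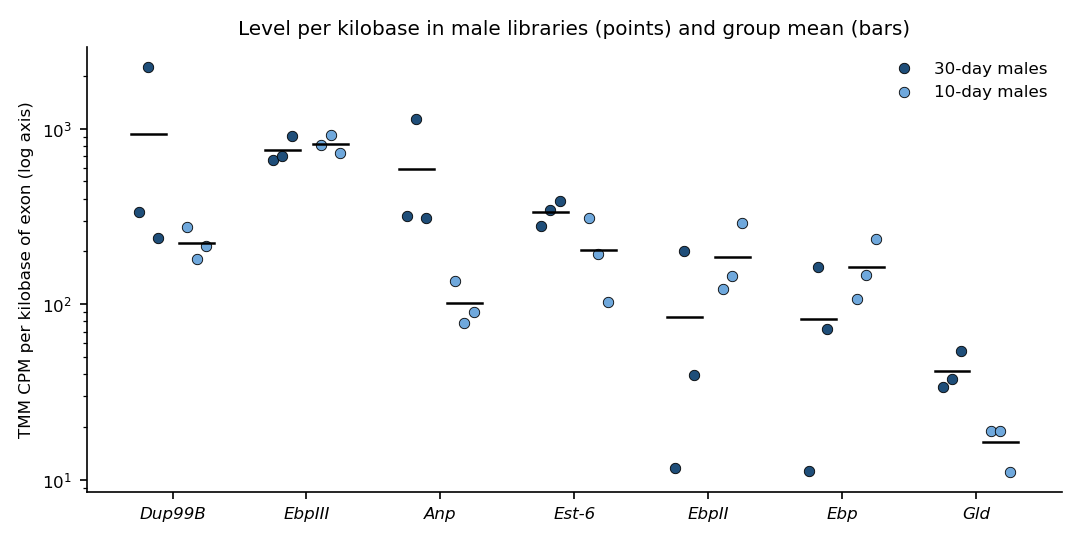
TMM CPM per kilobase of exon (y axis, log scale) of the 7 genes (x axis, in the order of their means in 30-day males) in male libraries. Points are libraries and bars are means of 3. EbpIII stays at 662 to 919 in all 6 libraries, and Dup99B and Anp at 30 days have 1 library each, at 2230 and 1131, above their others.

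Seen as ranks among 15588 genes with a known length, EbpIII was between place 74 and place 163 in every male library and between place 665 and place 2565 in female libraries. Dup99B was at place 27 in replicate 2 of the 30-day males and between place 232 and place 426 in the other male libraries, places that are uncertain for so short a gene. Ebp was at place 6377 in replicate 1 of the 30-day males and between place 344 and place 1110 in the others. The duct and bulb genes together took 1626 to 3029 TMM CPM in 30-day males and 1704 to 1939 in 10-day males, against 51.6 to 140.1 in 30-day females and 79.8 to 105 in 10-day females. EbpIII made up 46.8% and 47.2% of that sum in replicates 3 and 1 of the 30-day males and 26.6% in replicate 2, where Dup99B made up 22.8%. In 10-day males EbpIII made up 48.4% to 56.7%.

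Among the 6 male libraries the genes did not all vary together. Ebp and EbpII varied together (Pearson r = 0.97 and Spearman rho = 1.0 of log2(TMM CPM + 1), n = 6 libraries of 2 ages), and r was 0.96 without the 2 libraries farthest from the median of Ebp. Dup99B and Anp had r = 0.89 (rho = 0.94), which was 0.60 without the 2 libraries farthest from the median of Dup99B. Est-6 and Gld had r = 0.87 (rho = 0.83), which was 0.63 without the 2 farthest in Est-6. The lowest Pearson r was that of EbpII and Gld (r = -0.61, rho = -0.49), which was -0.31 without the 2 farthest in EbpII, and the lowest rho was that of EbpIII and Dup99B (r = -0.54, rho = -0.77). These are 5 of 21 pairs, and others cut across them. Gld and Anp had r = 0.75 (rho = 0.66), which was 0.92 without the 2 libraries farthest in Gld. Est-6 and Anp had r = 0.67 (rho = 0.66), which was 0.27 without the 2 farthest in Est-6. Libraries of 1 age share that age, and the values over all 6 libraries include replicate 2 of the 30-day males with its higher short genes.

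The genes whose pattern over all 12 libraries was most like that of each of the 7 were other genes with higher TMM CPM in males. The sex difference enters every one of these values. Nearest to Ebp were CG12680, Sfp87B and CG10822 (r = 0.99 to 1.00 over 8912 genes compared), and nearest to EbpII were Sfp87B, Acp24A4 and Sfp24Bb, of which the Sfp and Acp genes encode seminal fluid proteins. Nearest to Dup99B were Met75Ca, Met75Cb and Acp54A1. Met75Ca and Met75Cb are close copies whose reads may be split between them, so that their values are uncertain. Est-6 and Gld both had CG34034 among their 3 nearest genes, at 422 TMM CPM in 30-day males and 168 in 10-day males, beside CG18258 and CG17637 for Est-6 and CG43235 and CR44391 for Gld. Nearest to Anp were lncRNA:CR43912, lncRNA:CR43888 and CG43061, and nearest to EbpIII were CG31145, sbm and CG6834, each with 1.53 to 20.4 TMM CPM on average in females.

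Over the 6 male libraries alone, the nearest genes were mostly others. For Dup99B they were Met75Cb, CG13751 and Met75Ca, and for EbpII they were ND-20L, Sfp87B and CG43861. For Ebp they were CG9853, CG9263 and Parp16, for EbpIII CG12236, ADD1 and ClpX, for Est-6 CG13850, CtsF and CG30159, for Gld Top3beta, Rab2 and Slc45-1, and for Anp CG34227, Prosbeta5 and CG43679. With n = 6 libraries and 8912 genes, r of 0.98 to 1.00 describes these libraries only.

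The accessory gland, the other main source of seminal fluid, served as a companion list. All 16 of its listed genes in the tables were called higher in males at both ages. Of all tested genes 48.4% were at 30 days and 46.8% at 10 days. At each age 13 of the 16 had no count in females, and the others had few. Those 13 passed the filter through male counts alone, so their tests could not have come out higher in females. The summed level of the list was 9479 to 11050 TMM CPM in 30-day males and 8348 to 11150 in 10-day males, against 1.01 at most in females. Acp36DE was at 2856 ± 434 TMM CPM in 30-day males and 3393 ± 297 in 10-day males, and Acp32CD at 1336 ± 71.4 and 1368 ± 223 (SD, n = 3 each). Acp53C14b was at 1193 ± 134 and 1056 ± 239 in the same groups. None of the 16 passed the age test in males in edgeR, and their median log2 difference was 0.16, beside -0.08 for all tested genes and 0.73 for the 7 duct and bulb genes. Without replicate 2 of the 30-day males the median of the 7 was 0.36, and without replicate 3 or replicate 1 of the 10-day males it was 0.41 or 1.17. Of the 10 tested testis genes none had a positive age difference in males, with a median of -0.77 beside -0.08 for all tested genes. None of them was called in edgeR. As 0.446% of all tested genes were called, the lack of calls sets neither the testis nor the accessory gland list apart.

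Relatives of the 7 genes were followed from lists, whose counts of genes called higher in males stand beside 48.4% of all tested genes at 30 days and 46.8% at 10 days. The cecropins CecA1, CecA2, CecB and CecC, antibacterial peptides that are neighbours of Anp, were all 4 called higher in males at 30 days, and at 10 days 3 of 3 tested were. CecA1 was at 123.5 ± 35.7 TMM CPM in 30-day males and 47.7 ± 4.69 in 10-day males, against 1.81 ± 1.64 in 30-day females and 0.157 ± 0.271 in 10-day females (SD, n = 3 each). The 3 cecropins tested for age in males had a median log2 difference of 2.35, beside 2.52 for Anp (1.62 without replicate 2 of the 30-day males). In females, on low counts, the median of the same 3 was 3.59, and that of their interaction was -2.22. All 3 had their highest female count in replicate 3 of the 30-day females. Whether a rise with age is confined to males cannot be decided from these values. None of the 3 was called in edgeR for age in either sex or for the interaction.

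Of the 3 further OS-D genes, Phk-3 and CG30172 were called higher in males at 30 days and Phk-3 and a10 at 10 days, and with 3 genes this does not set the list apart from all tested genes. Phk-3 was at 41.4 ± 14.4 TMM CPM in 30-day males against 4.93 ± 1.54 in 30-day females, a log2 difference of 3.04. Among the listed oxidoreductases of the family of Gld, 5 of 9 tested were higher in males and 1 was lower at 30 days, and 7 of 10 were higher and 1 was lower at 10 days, and the 5 of 9 are near the share of all tested genes. CG9512 was the most abundant of them in males, at 151 ± 36.1 TMM CPM at 30 days and 116 ± 2.07 at 10 days, against 15.6 ± 6.21 in 30-day females and 9.24 ± 1.79 in 10-day females. CG9503 was the gene lower in males at 30 days, with a log2 difference of -3.69, and CG12398 the one at 10 days, with -3.90. None of these relatives was called for age in males, where 0.446% of all tested genes were called.

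Of the 5 listed genes around cis-vaccenyl acetate 4 were called higher in males at both ages, beside the same 48.4% and 46.8% of all tested genes, and with 5 genes this does not set the list apart. The elongase Elo68alpha, which takes part in making the pheromone in the bulb, was at 5.63 ± 3.37 TMM CPM in 30-day males and 8.40 ± 4.64 in 10-day males, against 0.166 ± 0.160 in 30-day females and 0.0496 ± 0.0859 in 10-day females (SD, n = 3 each). The elongase bond, which makes very long fatty acids in the male reproductive tract and elsewhere, was at 116 ± 12.6 in 30-day males and 119.4 ± 7.86 in 10-day males, against 3.21 ± 1.53 and 7.51 ± 1.81 in females of the same ages. The binding protein lush and the membrane protein Snmp1, both of the sensory side, were called higher in males as well. The receptor Or67d was at 0.324 TMM CPM on average in both male groups and was not called.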

How the data were processed

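RNA was taken from samples of 10 whole flies, and poly(A)-selected libraries with inserts of 250 to 300 bp were sequenced, and Dup99B and Anp, with 310 and 373 bases of exon, are close to that length. The authors deposited raw counts per gene, in 1 table for each age, and these were used as deposited. The aligner, counter and genome build are not given in the sources used here. The deposited normalized columns (12, with lost decimal points), the authors' means, and their short tables of FPKM with p-values were not used. Male libraries 1 and 2 at 30 days carry exchanged numbers in the count and FPKM tables, and the library names of the count header were followed.

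NCBI gene IDs were matched to symbols for 15250 of 15261 genes at 30 days and 15120 of 15130 at 10 days. Arms, strands, neighbours and exon lengths were taken from the Ensembl BDGP6.54 annotation. Genes were kept by filterByExpr (minimum count 10, total 15). Sexes were compared within an age with TMM factors and the quasi-likelihood test of edgeR 4.0.16 (13013 genes at 30 days, 13334 at 10 days), and ages and the interaction in 1 fit of 12 libraries over 14112 of the 14760 genes in both tables. P-values were adjusted by Benjamini-Hochberg over all tested genes with a threshold of 0.05, and SE is the log2 fold change over the square root of F. Bounds and intervals cover counting error only. With 3 libraries a group an exact permutation test cannot go below 0.10, so none was used.

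The alternatives were DESeq2 1.42.0, limma-voom (limma 3.58.1), RLE, upper quartile, total count and marker gene factors, 2 other filters, a log2 fold change over 1, the replicate block, single sexes, and each library left out. Chosen after seeing the data were the genes of either table, the block with the exchanged numbers, and, with single male libraries left out, the levels per kilobase and the median over the 7 genes. The tests were checked on simulated data. The fits ran in R 4.3.3. Summaries ran in Python 3.11.15 with pandas 2.3.3 and numpy 2.4.6, exact intervals came from scipy 1.17.1, and plots were drawn with matplotlib 3.10.9.

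The 7 genes and all lists were chosen with earlier results of these data known. Named besides the 7 were their listed relatives, the cis-vaccenyl acetate genes, the 3 accessory gland genes with the highest male level, and for each of the 7 the 3 genes with the highest Pearson r over 12 and over 6 male libraries, among genes with a mean of at least 10 TMM CPM in males. Tissue markers were named where they moved with a result or were at 0.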

Additional observations from a re-analysis of the deposited data

How the results depend on the processing

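All 7 genes stayed higher in males at both ages under every alternative, except EbpIII at 30 days with photoreceptor, neuron and muscle factors (-0.21). Ebp, EbpII, Anp and Dup99B had next to no female counts and could not have turned. Only EbpIII, Est-6 and Gld were thus put to a test by the alternatives. The photoreceptor, neuron and muscle factors gave 2698 genes higher and 7113 lower at 30 days, and 3039 and 6952 at 10 days. With single libraries left out, the sex difference of EbpIII ran from 2.88 to 3.52 at 30 days. The age calls over all genes varied far more, with causes that were not tested. In males 26 genes were higher and 37 lower at 30 days. DESeq2 gave 213 and 352, male libraries alone 379 and 269, limma-voom 335 and 910, and photoreceptor, neuron and muscle factors 0 and 0. There were 10 lower with a log2 fold change over 1 and 19 lower with upper quartile factors. Of the 7 genes DESeq2 and male libraries alone called 2 higher, and limma-voom called 2 higher and 1 lower. Leaving out single libraries gave 0 to 44 higher and 0 to 63 lower.

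In females 3 genes were higher and 43 lower at 30 days. DESeq2 gave 147 and 472, and photoreceptor, neuron and muscle factors 4898 and 172, with 2 of the 7 genes higher. There were 21 lower with female libraries alone, 88 with limma-voom and 17 with total counts. Leaving out single libraries gave 0 to 24 higher and 7 to 234 lower. The small age differences in females changed sign for EbpIII with limma-voom (-0.14) and upper quartile factors (-0.0092) and for Est-6 with limma-voom (-0.23). With single libraries left out they ran from -0.37 to 0.25 for EbpIII, from -0.33 to 0.31 for Est-6 and from -0.0569 to 0.566 for Gld. The interaction had 1 gene higher and 1 lower. DESeq2 gave 274 and 246, limma-voom 55 and 28, upper quartile factors 2 higher and photoreceptor, neuron and muscle factors 0 lower, and single libraries left out 0 to 76 and 0 to 32. The interaction turned sign for EbpIII with limma-voom (0.0193), for Est-6 (-0.10) and Gld (-0.0310) with photoreceptor, neuron and muscle factors, and ran from -0.30 to 0.33 for EbpIII with single libraries left out. Of the 21 genes named as most like the 7 over male libraries, 12 were shared with total counts.

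Deviations of same-numbered libraries from their group means had r of -0.0931 to 0.0487 over 18 pairs, 0 of them over 0.1. With 3 libraries a group this cannot exclude that replicate numbers pair the samples. With the replicate block all 7 genes were higher in males at both ages, though Ebp, EbpII, Anp and Dup99B could not have turned. Over all genes 5469 were higher and 3626 lower at 30 days, and 5385 and 3928 at 10 days. With the block 0 genes were higher and 0 lower for age in males, 0 and 3 in females, and 0 and 0 in the interaction, and the age difference in females was -0.0286 for EbpIII and -0.0302 for Est-6. With the 30-day male numbers 1 and 2 exchanged in the block these were 0 and 0, 0 and 4, 0 and 0, -0.0339 and -0.0562.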
